A study of Rattus norvegicus with 13 samples.

Results

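The Hedgehog receptors and effectors are 10 genes: the receptor *Ptch1*, the signal transducer *Smo*, the co-receptors *Boc*, *Cdon* and *Gas1*, the ligand binding inhibitor *Hhip*, the Gli inhibitor *Sufu*, and the transcription factors *Gli1*, *Gli2* and *Gli3*. They were taken by name from the 14716 transcript rows of the series. Of the 10, 9 were found, each in 1 row, and no row carries the name *Gas1*, which is not analysed here. RNA came from the ventricular zone (VZ), the progenitor cell layer along the lateral ventricle, collected by laser capture from the posterior telencephalon of male Long Evans rats on postnatal day 2. The 7 control pups were euthyroid and their dams received vehicle. The 6 PTU exposed pups were hypothyroid. Their dams drank 3 ppm propylthiouracil (PTU), which blocks thyroid hormone synthesis, from gestational day 6 into lactation. Each pup came from its own litter, the captured epithelium was recognised by its pseudostratified look, and the study's methods describe its RNA as partly degraded.

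In Hedgehog signaling, a secreted ligand such as Sonic hedgehog binds *Ptch1*, which otherwise holds the membrane protein *Smo* inactive, and *Boc*, *Cdon* and *Gas1* help the ligand to bind. Active *Smo*, working at the primary cilium, frees the Gli proteins from *Sufu*. *Gli2* then acts mainly as an activator, *Gli3* is known mainly as a repressor when no ligand is present, and *Gli1*, *Ptch1* and *Hhip* are transcribed in response, so that their transcripts are commonly read as a measure of the signal. In the neonatal VZ the pathway is known for keeping neural stem cells and for patterning their daughters.

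Values are normalized counts, the reads of each row divided by a size factor for each pup. Low values moved in steps, and 1 read was worth about 0.793 to 1.36 normalized counts, which puts the counted reads between 22291831 and 44378942 per pup. Rows averaging 10 or more (14606) entered a limma comparison on the log2(normalized count + 1) scale, and p-values were adjusted over all of these rows by the Benjamini-Hochberg procedure. PTU pup 1 stood apart: in 114 rows it had at least 3 times the highest value of any other pup, against 0 to 7 rows in the other 12 pups, and it was the highest of all pups in 8 of 10 neuron marker transcripts. For the members, ratios and correlations, values without it are given too. All 10 of 10 listed radial glia transcripts were present (*Sox2* averaged 7107 ± 1050.4 normalized counts in controls, SD, n = 7), and so were markers of choroid plexus, whose 9 listed rows summed to between 49090.4 and 138374 normalized counts in controls, although the study describes the choroid plexus as outside the captured tissue. Most of that sum was *Ttr*, which averaged 91587 normalized counts in controls, and the next highest of the 9 rows, *Clic6*, averaged 2817.

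At an adjusted p of 0.05, limma called 0 of the 9 members, and 0% of all 14606 rows. The smallest adjusted p of any row was 0.0981. The study's own comparison of these pups (DESeq2), not rerun here, reported *Gli2* and *Gli3* as downregulated. At an unadjusted p under 0.05, limma found 5 of the 9 members lower in PTU exposed pups (*Gli2*, *Gli3*, *Boc*, *Smo* and *Cdon*), beside 8.2% of all rows. It found 0 of the 9 members higher. The median log2 fold change of the members was -0.24, and that of all tested rows was 0.00. The remaining members, *Gli1*, *Sufu*, *Ptch1* and *Hhip*, had intervals that include no difference.

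**Figure D1:**
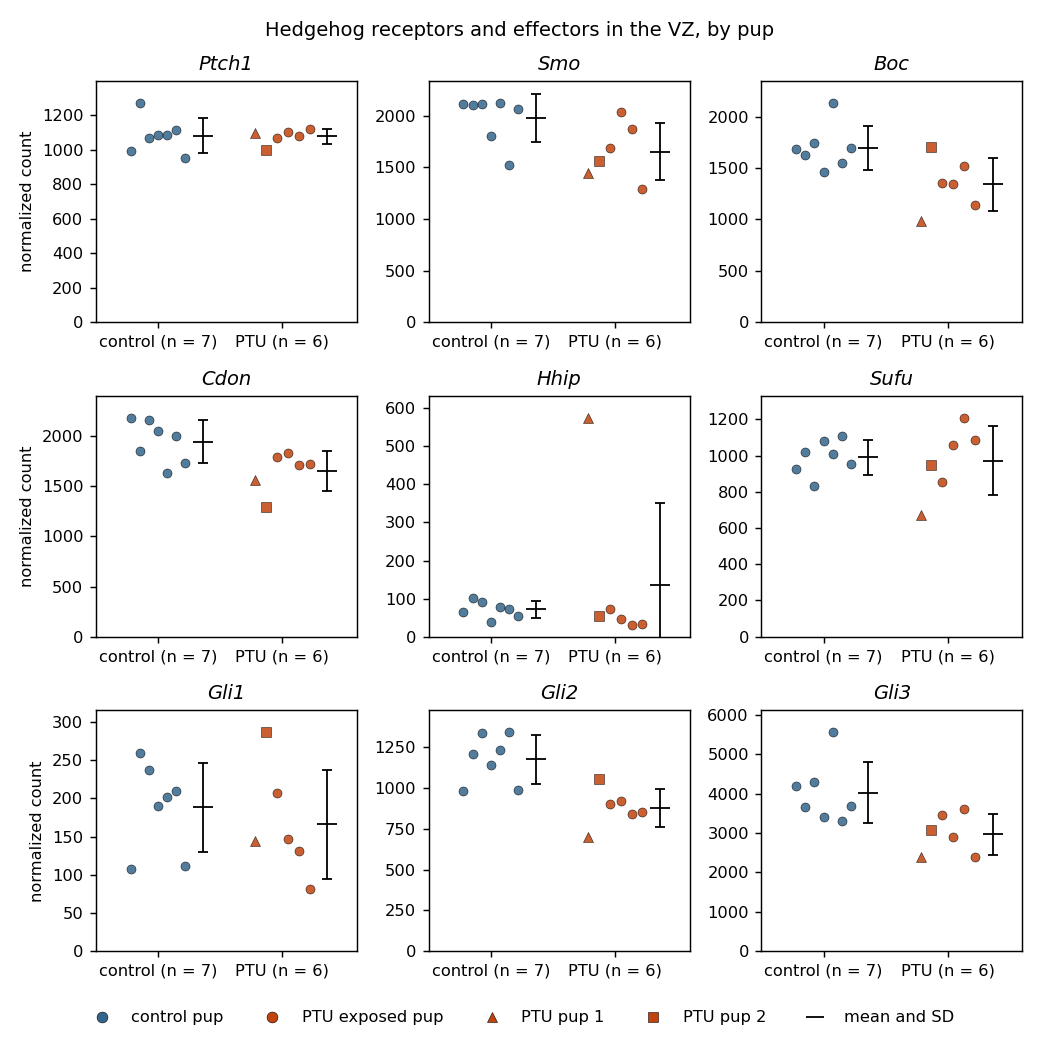
Normalized counts (vertical axes from 0) of the 9 members in each control pup (blue, n = 7) and PTU exposed pup (orange, n = 6; triangle, PTU pup 1; square, PTU pup 2), with the group mean and SD in black; the SD bar of *Hhip* in PTU exposed pups runs past the lower end of its axis. Among PTU exposed pups, *Gli2* lies between 703 and 1055 normalized counts and *Ptch1* between 998 and 1121, and a single pup holds *Hhip* at 575.

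*Gli2* (row ENSRNOT00000009963), the main activator of the Gli family, lay at 981, 1211 and 1342 normalized counts in control pups (lowest, median and highest) and at 703, 877 and 1055 in PTU exposed pups. Of the PTU exposed pups, 5 were below every control pup, and only PTU pup 2 was within the control range. The means were 1176 ± 149 (SD, n = 7) and 878 ± 115 (SD, n = 6), the exposed mean 25.4% lower. In limma the log2 fold change was -0.42 (standard error 0.11, 95% interval -0.65 to -0.19, adjusted p = 0.132), and an exact permutation test over pups gave an unadjusted p of 0.00408 (two-sided). Without PTU pup 2 it was -0.48 with an adjusted p of 0.0439 in limma, a fit that called 1.23% of all rows. Leaving out PTU pup 1 instead gave -0.36 (adjusted p = 0.17 in limma).

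*Gli3* (ENSRNOT00000019396), the family's main repressor, lay at 3314, 3696 and 5558 normalized counts in controls and at 2379, 2989 and 3608 after PTU exposure. The highest control was control pup 5, and 4 of 6 PTU exposed pups were below every control pup. The means of 4019 ± 772 (SD, n = 7) and 2972 ± 518 (SD, n = 6) put the exposed mean 26.0% lower, nearly the same proportion as for *Gli2*. The log2 fold change in limma was -0.43 (standard error 0.13, 95% interval -0.70 to -0.17, adjusted p = 0.148; unadjusted p = 0.00991 by a two-sided exact permutation test). It was -0.38 without PTU pup 1 (adjusted p = 0.216 in limma).

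*Gli1* (ENSRNOT00000009803), both an effector and a target, had far fewer reads, an estimated 101 to 297 per pup. In controls it lay at 107, 202 and 259 normalized counts, and after PTU exposure at 81.4, 145 and 287. The highest and the lowest of all 13 pups were both PTU exposed (PTU pup 2 and PTU pup 6). The means were 188 ± 58.4 (SD, n = 7) and 166 ± 71.4 (SD, n = 6), with a log2 fold change of -0.22 in limma (standard error 0.28, 95% interval -0.80 to 0.37, adjusted p = 0.724; unadjusted p = 0.487 by a two-sided exact permutation test). A difference as large as that of *Gli2* lies inside this interval, so the spread between pups could not separate it from no difference. Without PTU pup 1 the log2 fold change was -0.20 (adjusted p = 0.784 in limma). It was -0.40 without PTU pup 2 and -0.035 without PTU pup 6 (adjusted p = 0.415 and 0.972 in limma).

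*Ptch1* (ENSRNOT00000086130), the receptor and a classical target, had the lowest coefficient of variation of the 9 members in both groups. Its control values were 954, 1085 and 1271 normalized counts, and those after PTU exposure 998, 1087 and 1121, all inside the control range. The means were 1081 ± 101 (SD, n = 7) and 1077 ± 42.9 (SD, n = 6). That coefficient was 9.37% among controls and 3.99% among PTU exposed pups. In limma its log2 fold change was -0.00 (standard error 0.08, 95% interval -0.17 to 0.17, adjusted p = 0.997), and the sign flipped under several alternatives, up to 0.20 when pups were scaled to a common total. It was -0.01 without PTU pup 1 (adjusted p = 0.98 in limma).

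Since *Ptch1* is read as a target of Gli proteins, its upstream sequence was searched for the consensus Gli motif GACCACCCA on both strands, in the 300 bases of each RefSeq promoter window (250 bases before and 50 after the gene start, build GRCr8). The motif was found in 129 of 33469 windows (0.385%). Of the 9 members, 8 had a window (*Gli1* did not), and *Ptch1* was the only one of these 8 with the motif. The 250 bases before the listed *Ptch1* start are shown because they hold that match, at chr17:1555321-1555570 on the plus strand of GRCr8, with the match in capitals. It reads as the reverse complement, TGGGTGGTC, from base 172 to base 164 before the start.
Ptch1: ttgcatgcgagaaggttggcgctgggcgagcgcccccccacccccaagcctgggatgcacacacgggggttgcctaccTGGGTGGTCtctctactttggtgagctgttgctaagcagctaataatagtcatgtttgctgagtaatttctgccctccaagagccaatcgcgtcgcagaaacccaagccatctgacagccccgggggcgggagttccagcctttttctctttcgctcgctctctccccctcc
This is a match of letters in 1 window of a gene with several listed transcripts, and the data hold no measure of binding there. A pair of AGGTCA half-sites in the same direction with 4 bases between them, a classical thyroid hormone response element, was found in 2 of the 33469 windows and in 0 of the 8 member windows. With so few matches over all windows, 0 of 8 was nearly certain beforehand and does not show whether members have such elements. Inexact half-sites and bases outside the windows were not searched.

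*Smo* (ENSRNOT00000080223), the transducer that *Ptch1* restrains, lay at 1520.1, 2102 and 2123 normalized counts in controls and at 1292, 1624 and 2037 after PTU exposure. In the control group 5 pups stood close together above every PTU exposed pup, and control pup 6 and control pup 4 lay lower. The means were 1977 ± 232 (SD, n = 7) and 1650 ± 276 (SD, n = 6), a log2 fold change of -0.27 in limma (standard error 0.11, 95% interval -0.50 to -0.03, adjusted p = 0.258; unadjusted p = 0.0449 by a two-sided exact permutation test). Without PTU pup 1 the log2 fold change was -0.23, and the exact permutation test gave 0.0947.

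The co-receptors *Boc* and *Cdon*, related immunoglobulin superfamily proteins, also had lower means. *Boc* (ENSRNOT00000002790) lay at 1464, 1687 and 2134 normalized counts in controls and at 984, 1350.2 and 1707 after PTU exposure. PTU pup 1 was the lowest of all pups, control pup 5 was the highest, as it was for *Gli3*, and PTU pup 2 was above 5 of the 7 control pups. The means of 1699 ± 214 (SD, n = 7) and 1340.4 ± 259 (SD, n = 6) gave a log2 fold change of -0.36 in limma (standard error 0.12, 95% interval -0.61 to -0.10, adjusted p = 0.175; unadjusted p = 0.0152 by a two-sided exact permutation test). Leaving out PTU pup 1 gave -0.27 (adjusted p = 0.278 in limma).

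*Cdon* (ENSRNOT00000016248) lay at 1632, 1995 and 2183 normalized counts in controls and at 1292, 1717 and 1829.8 after PTU exposure. Here PTU pup 2 was the lowest and control pup 5, the highest for *Boc* and *Gli3*, was the lowest control pup. All 6 PTU exposed pups were below the control mean of 1943 ± 212 (SD, n = 7), with a mean of 1653 ± 199 (SD, n = 6). The log2 fold change was -0.24 in limma (standard error 0.10, 95% interval -0.44 to -0.03, adjusted p = 0.256; unadjusted p = 0.0286 by a two-sided exact permutation test), and without PTU pup 1 it was -0.22 and the exact permutation test gave 0.053.

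*Sufu* (ENSRNOT00000026987), which holds Gli proteins in the cytoplasm, averaged 991 ± 95.1 normalized counts (SD, n = 7) among controls against 971 ± 190.5 (SD, n = 6) in the exposed group. Controls lay at 833, 1008 and 1109, and PTU exposed pups at 674, 1003 and 1210.1. PTU pup 1 was the lowest and PTU pup 5 the highest of all 13, so the exposed group enclosed the control group. Its log2 fold change in limma was -0.05 (standard error 0.12, 95% interval -0.31 to 0.21, adjusted p = 0.88), with 0.05 when PTU pup 1 was left out and 0.15 under scaling to a common total.

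*Hhip* (ENSRNOT00000024616), a surface protein that captures Hedgehog ligands, was the lowest member in reads, with an estimated 29 to 98 reads in control pups. Controls lay at 39.3, 72.7 and 103 normalized counts. In PTU exposed pups the values were 30.5, 33.8, 46.5, 53.1, 72.2 and, in PTU pup 1, 575. The exposed mean of 135 ± 216 (SD, n = 6) rested on that pup, and the mean of the other 5 was 47.2 ± 16.7 (SD, n = 5), below the control mean of 71.8 ± 21.4 (SD, n = 7). In limma the log2 fold change was 0.01 with all pups (standard error 0.52, 95% interval -1.09 to 1.1, adjusted p = 0.997) and -0.60 without PTU pup 1 (adjusted p = 0.366; unadjusted p = 0.0556 by a two-sided exact permutation test). In the same pup, *Neurod6*, a transcription factor of cortical neurons, stood at 4253 normalized counts, while the other 12 pups lay between 346 and 1312, and the 10 neuron marker transcripts summed to 122226 against at most 98245.3 in any other PTU exposed pup and 78867.2 in any control pup. The part of neuronal RNA in the *Hhip* value was not tested.

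**Figure D2:**
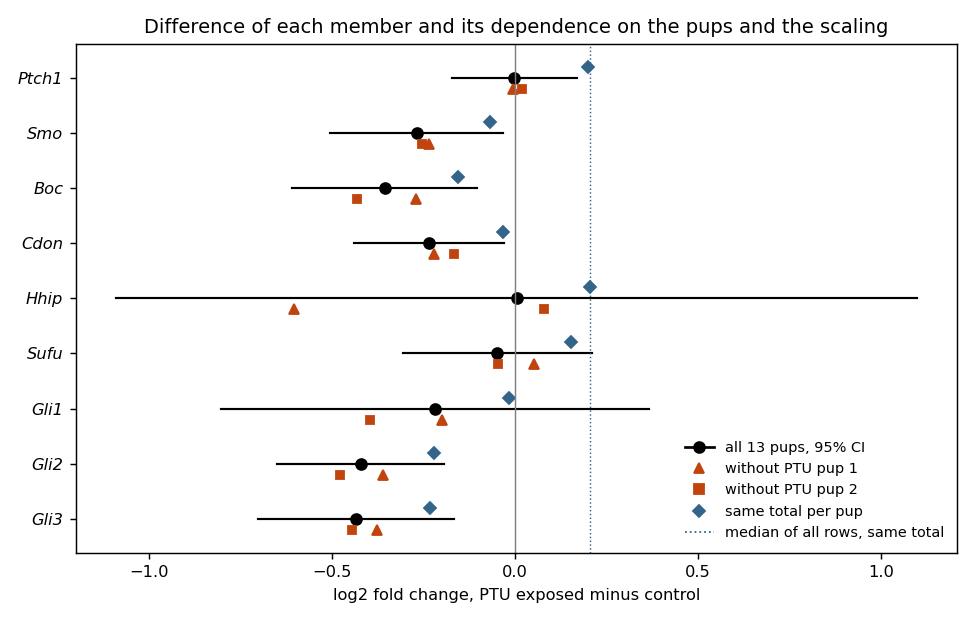
The log2 fold change of each member (horizontal axis, PTU exposed minus control) with all 13 pups and its 95% interval from limma (black), without PTU pup 1 (triangle), without PTU pup 2 (square), and with pups scaled to a common total (diamond); the dotted line is the median of all rows under that scaling, 0.20. *Gli2*, *Gli3*, *Boc*, *Smo* and *Cdon* stay left of 0 under these settings, and *Hhip* moves to -0.60 without PTU pup 1.

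Not one of the 9 members had groups without overlap, a pattern that 0.26% of all rows showed with every PTU exposed pup below every control pup. Looking at the 5 members with an unadjusted p under 0.05 pup by pup, PTU pup 1 was below every control pup in 5 of 5, PTU pup 6 in 4, PTU pup 4 in 3, PTU pup 2 and PTU pup 3 in 2 each, and PTU pup 5 in 1. These 5 were picked by their difference, so the counts describe which pups carry it. With pups scaled to a common total, the median of all rows moved to 0.20, and the members' log2 fold changes moved with it. *Gli2* was then at -0.22, *Gli3* at -0.23, *Boc* at -0.15, *Smo* at -0.07 and *Cdon* at -0.03. The adjusted p-values in limma were then 0.604, 0.614, 0.729, 0.885 and 0.945. Relative to that median they were at -0.42, -0.44, -0.36, -0.27 and -0.24. The 3 rows with the highest means held 23.9 to 60.1% of the total of a pup. With a common total computed without these 3 rows, the 5 members were at -0.42, -0.43, -0.35, -0.26 and -0.23. The adjusted p-values in limma were 0.134, 0.165, 0.195, 0.302 and 0.275 under that setting.

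Marker lists of several cell types also had means that differed mostly in 1 direction between the groups, although 0 of their rows had an adjusted p of at most 0.05 in limma, and a bulk sample cannot tell fewer cells of a type from less RNA per cell. Of the 10 radial glia transcripts, 10 had a lower mean in PTU exposed pups and 6 an unadjusted p under 0.05 in limma, beside 8.2% of all rows. Their sum ranged from 76924.1 to 106344 normalized counts among controls, and from 63165.1 to 84258.7 in the exposed group, with a median log2 fold change of -0.33. *Sox2* itself was at -0.08 (adjusted p = 0.736 in limma). Choroid plexus rows were lower in 9 of 9 cases, beside 49.3% of all rows. Of these 9, 5 had an unadjusted p under 0.05 in limma, beside 8.2% of all rows. Their sums, mostly *Ttr*, were 22951.7 to 98234.2 normalized counts after PTU exposure. Of 10 neuron rows, 9 were higher, 5 of them with an unadjusted p under 0.05, beside 8.11% of all rows. Without PTU pup 1 the neuron list had 8 of 10 rows higher, 3 of them with an unadjusted p under 0.05 beside 6.64% of all rows, and *Neurod6* was at -0.51 (adjusted p = 0.418 in limma). Without that pup the radial glia list had 10 of 10 rows lower, 5 of them with an unadjusted p under 0.05 beside 7.67%, and the choroid plexus list had 9 of 9 rows lower, 6 of them at such a p. The part of these differences in the *Gli2*, *Gli3*, *Boc*, *Smo* and *Cdon* differences was not tested.

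Ratios of a pair of members within a pup do not depend on how the pups were scaled, so 5 ratios were compared to ask whether members differed by unequal amounts, with p-values adjusted over the 5. The log2 ratio of *Gli2* to its inhibitor *Sufu* had the largest difference. It averaged 0.24 ± 0.22 (SD, n = 7) among controls against -0.13 ± 0.27 (SD, n = 6) in the exposed group, a difference of -0.37 (standard error 0.14; p = 0.0157 by a two-sided exact permutation test, 0.0787 when adjusted). All 6 of 6 exposed pups were under the mean of the controls, and without PTU pup 2 the difference was -0.43 (exact permutation test, adjusted p = 0.0442). With any other single pup left out the adjusted p stayed above 0.05. The smallest differences were -0.29 without PTU pup 5 and -0.30 without control pup 3 (exact permutation test, adjusted p = 0.161 and 0.173), and without PTU pup 1 it was -0.41 (adjusted p = 0.0821 by the same test).

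The log2 ratio of *Ptch1* to *Smo* was higher by 0.27 (standard error 0.14) after PTU exposure, in 5 of 6 pups above the control mean (exact permutation test, p = 0.0804, adjusted p = 0.201), and by 0.23 without PTU pup 1. *Gli3* to *Gli2*, the repressor against the activator, averaged 1.76 ± 0.31 (SD, n = 7) and 1.75 ± 0.24 (SD, n = 6), a difference of -0.01 (standard error 0.15; exact permutation test, p = 0.939) whose sign flipped with pups left out. *Gli2* to *Gli1* and *Gli3* to *Gli1* differed by -0.20 (standard error 0.25) and -0.22 (standard error 0.30), with adjusted p-values of 0.618 for both in exact permutation tests. Without PTU pup 1 these were -0.16 and -0.18, and *Gli3* to *Gli2* was at -0.02. Single pups moved the ratios to *Gli1*, to -0.081 and -0.050 without PTU pup 2 and to -0.38 and -0.34 without PTU pup 6. The larger differences of *Gli2* and *Gli3* are thus not shown to exceed that of *Gli1*.

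**Figure D3:**
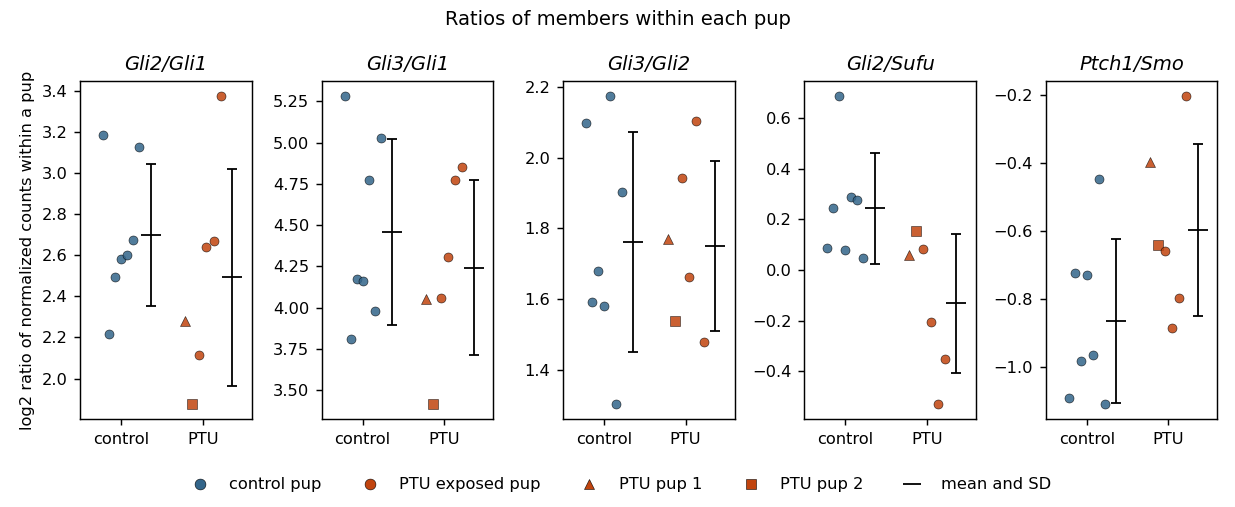
The log2 ratio of the normalized counts of a pair of members within each pup (vertical axes, each with its own range) in control pups (blue, n = 7) and PTU exposed pups (orange, n = 6), with mean and SD. *Gli2*/*Sufu* averages 0.24 in controls and -0.13 in PTU exposed pups, while *Gli3*/*Gli2* averages 1.76 and 1.75.

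To ask whether members varied together across pups of the same group, values were centred within groups over the 13 pups, and 5 pairs were computed. The adjusted permutation p was above 0.05 for 5 of 5. The target genes *Gli1* and *Ptch1* had a Pearson r of 0.281 (permutation p = 0.352, adjusted 0.534) and a Spearman rho of 0.0714 (permutation p = 0.821), and r was 0.317 without the 2 pups farthest from the median of *Gli1*. For *Gli2* and *Gli3*, r was 0.231 and rho 0.176 (permutation p = 0.467 and 0.591, adjusted 0.534 and 0.79), with r at 0.122 without the 2 farthest pups. *Boc* and *Cdon* had the only negative r, -0.427 (permutation p = 0.187, adjusted 0.534; rho -0.165, permutation p = 0.601; r -0.398 without the 2 farthest). The pairs of *Hhip* with *Gli1* and *Ptch1* had r of 0.2 and 0.187 (adjusted permutation p = 0.534 for both), rho of 0.434 and 0.137 (permutation p = 0.143 and 0.632), and r of 0.0435 and 0.0644 without the 2 farthest. Leaving out PTU pup 1, the pup with *Hhip* at 575, gave r of 0.621 for *Gli1* and *Hhip* (adjusted permutation p = 0.121) and 0.273 for *Ptch1* and *Hhip* (0.518). For the other pairs it gave 0.287 (*Gli1* and *Ptch1*), 0.037 (*Gli2* and *Gli3*) and -0.642 (*Boc* and *Cdon*). Other single pups moved r too. *Gli1* and *Ptch1* ranged from 0.0807 without control pup 2 to 0.582 without PTU pup 2, *Gli1* and *Hhip* were at 0.0449 without PTU pup 6, and *Boc* and *Cdon* at -0.118 without PTU pup 2. With pups scaled to a common total, r was 0.69 for *Ptch1* and *Hhip*, 0.68 for *Gli2* and *Gli3* and 0.48 for *Boc* and *Cdon*, with adjusted permutation p-values of 0.022, 0.0276 and 0.138. It was 0.501 for *Gli1* and *Ptch1* and 0.473 for *Gli1* and *Hhip* (adjusted permutation p = 0.138 and 0.186). This scaling multiplies all rows of a pup by 1 shared factor.

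The named rows most like *Gli2* over the 13 pups, by Pearson r of values centred within groups, were *Nthl1* (r = 0.936), *Ccs* (0.898) and *Cutc* (0.896). Those most like *Gli3* were *Vit* (r = 0.967), *Pea15* (0.9495) and *Ptgfrn* (0.905). These are the highest r among the rows with a gene name and are given as a description. The log2 fold changes after PTU exposure were 0.18, -0.63 and -0.06 for *Nthl1*, *Ccs* and *Cutc*, and -0.44, -0.21 and -0.39 for *Vit*, *Pea15* and *Ptgfrn*.

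The other genes of the pathway came from a list of 49, of which 41 had a row. No row carries the names of the ligands *Shh*, *Ihh* or *Dhh*. In limma, 0 of the 41 had an adjusted p of at most 0.05, 7 were lower at an unadjusted p under 0.05 beside 8.2% of all rows, and 3 were higher beside 8.11%. Without PTU pup 1, a count added after seeing the data, 5 were lower beside 7.67% of all rows and 3 higher beside 6.64%. The median log2 fold change of the 41 genes was 0.01 with all pups and -0.01 without PTU pup 1.

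Among the 6 genes of ligand processing and release with a row, *Scube2*, which helps release the lipid bound ligand, averaged 116 ± 35.6 normalized counts (SD, n = 7) among controls against 69.9 ± 15.2 (SD, n = 6) in the exposed group. Controls ranged from 76.6 to 186 and PTU exposed pups from 46.1 to 83.9. In limma this gave a log2 fold change of -0.71 (adjusted p = 0.174, standard error 0.23; unadjusted p = 0.00524 by a two-sided exact permutation test). *Disp2*, of the Dispatched family, had a higher mean, 1258 ± 562 (SD, n = 6) against 818 ± 216 (SD, n = 7), and its log2 fold change was 0.57 (adjusted p = 0.249 in limma; unadjusted p = 0.0589 by a two-sided exact permutation test). PTU pup 1 was its highest pup at 2309 normalized counts, and without that pup the log2 fold change was 0.38 (adjusted p = 0.387 in limma). *Lrp2*, an endocytic co-receptor at the apical surface of the neuroepithelium, had a log2 fold change of -0.37 (adjusted p = 0.292 in limma).

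Of 14 genes that act at the primary cilium, 6 had a lower and 8 a higher mean, and 3 had an unadjusted p under 0.05, all lower, beside 8.2% of all rows. *Evc*, part of a complex that relays the signal from *Smo*, averaged 536 ± 78 normalized counts (SD, n = 7) and 439 ± 63.8 (SD, n = 6), a log2 fold change of -0.29 (adjusted p = 0.274 in limma). *Iqce*, which anchors that complex, was at -0.30 and *Tulp3*, which brings receptors into the cilium, at -0.31 (adjusted p = 0.265 and 0.292 in limma). *Evc2*, the partner of *Evc*, was at 0.03 (95% interval -0.29 to 0.36). *Kif7*, a ciliary kinesin that controls Gli processing, was at -0.05 (95% interval -0.28 to 0.19), and *Gpr161*, a ciliary receptor that restrains the pathway, at 0.01 (95% interval -0.16 to 0.17).

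All 12 genes of Gli phosphorylation and proteolysis had a row, 5 with a lower and 7 with a higher mean. *Prkacb*, a catalytic subunit of protein kinase A, which primes Gli proteins for processing, averaged 4510.3 ± 169 normalized counts (SD, n = 7) among controls against 5230 ± 656 (SD, n = 6) in the exposed group, a log2 fold change of 0.21 (adjusted p = 0.226 in limma). *Cul3*, the scaffold of the ubiquitin ligase that removes full length Gli proteins, was at 0.17 and *Csnk1a1*, a casein kinase, at -0.22 (adjusted p = 0.273 and 0.269 in limma).

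Of the 11 listed targets outside the members, 8 had a row, 2 with a lower and 6 with a higher mean. *Sfrp1*, a secreted Wnt modulator, averaged 9930 ± 1636 normalized counts (SD, n = 7) and 7870 ± 1382 (SD, n = 6), a log2 fold change of -0.34 (adjusted p = 0.208 in limma). The cell cycle genes did not share a direction: *Ccnd1* was at -0.09 (95% interval -0.36 to 0.18), *Ccnd2* at 0.27 (95% interval -0.06 to 0.59) and *Mycn* at 0.21 (95% interval -0.00 to 0.42), with adjusted p-values of 0.769, 0.397 and 0.306 in limma. Without PTU pup 1, 2 of the 8 targets were higher at an unadjusted p under 0.05 in limma, beside 6.64% of all rows. These were *Ccnd2* at 0.36 and *Nkx2-2* at 0.58 (adjusted p = 0.293 and 0.305 in limma). In that fit 1 target, *Sfrp1*, was lower at such a p, beside 7.67% of all rows.

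**Figure D4:**
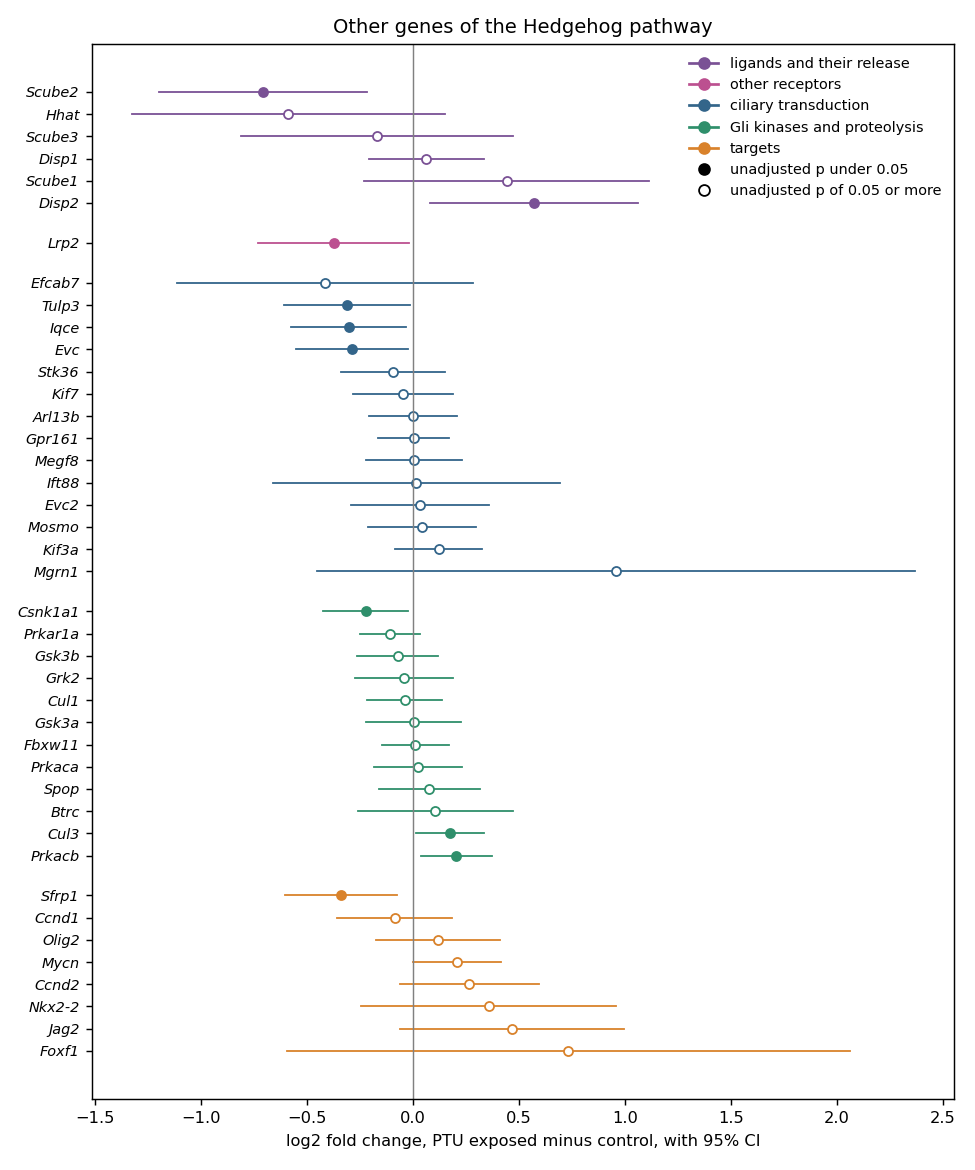
The log2 fold change (horizontal axis, PTU exposed minus control, 7 control and 6 PTU exposed pups) and 95% interval from limma of the 41 other pathway genes with a row, grouped and coloured by role; filled points have an unadjusted p under 0.05. Filled points lie on both sides of 0, from *Scube2* at -0.71 to *Disp2* at 0.57.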

How the data were processed

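The VZ of each pup was sequenced (RNA-Seq; 7 controls, 6 PTU exposed), and pups were grouped by their sample titles. The authors trimmed reads with Trimmomatic, used STAR 2.7.8a with the mRatBN7.2 genome for alignment and quantified them in Partek Flow with an expectation/maximization model that divides reads among transcripts; the methods name a RefSeq annotation, while rows carry Ensembl identifiers. The deposited values are a signal, counts divided by median ratio size factors. Other deposited columns hold the authors' DESeq2 comparison (p, FDR, ratio, fold change, group means) and were not used. Of the values from 20 to 150, between 88.9 and 90.5% per pup were whole multiples of 1 step (within 0.05), short of the 95% set for recovering whole reads, so no count model was run.

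The members and lists were chosen with earlier results of these data known. Rows with a mean of at least 10 (14606 of 14716) were fitted as log2(normalized count + 1) in limma 3.58.1 (R 4.3.3; empirical Bayes with variance trend), which was tested on simulated data. A pseudocount of 1 understates differences of low rows. Single values were compared over all 1716 regroupings of the pups (exact permutation test; smallest p 0.000583), and correlations with 100000 permutations within groups. Named genes are all members, fixed pathway genes, and listed pathway genes with an unadjusted p under 0.05 (*Nkx2-2* only without PTU pup 1). Also named are some marker genes and the rows most like *Gli2* and *Gli3*. Transcript lengths were not used here, so levels are not compared between genes. Alternatives were pseudocounts of 0.1 and 10, no filter, a mean of at least 100, 2 scalings to the same total (1 without the 3 highest rows), quantile normalization, summed rows, array weights, no variance trend, a replicate block, and each pup left out. Replicate numbers belong to pups of different litters. Other steps ran in Python 3.11.15 with scipy 1.17.1, pandas 2.3.3 and numpy 2.4.6, and plots were drawn with matplotlib 3.10.9.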

Additional observations from a re-analysis of the deposited data

Results flagged for a closer look

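The highest and lowest pup of each group was compared with the rest of its group for the 9 members and 5 ratios (28 groups), and 3 extreme values stood apart by Dixon's criterion, where chance gives about 1 in 20 groups. *Hhip* in PTU pup 1 was at 575 normalized counts, and the other 5 PTU exposed pups were between 30.5 and 72.2. *Boc* in control pup 5 was at 2134 normalized counts, and without this pup its log2 fold change was -0.30 (adjusted p = 0.295 in limma). The log2 ratio of *Gli2* to *Sufu* in control pup 3 was 0.68, and without that pup the difference between groups was -0.30 (exact permutation test, adjusted p = 0.173).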

How the results depend on the processing

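Over 24 alternatives each, *Gli2*, *Gli3*, *Boc*, *Smo*, *Cdon* and *Gli1* kept log2 fold changes below 0, of -0.48 to -0.22, -0.49 to -0.23, -0.43 to -0.15, -0.33 to -0.07, -0.28 to -0.03 and -0.40 to -0.02. Only *Gli2* passed an adjusted p of 0.05 in limma, without PTU pup 2 (-0.48, adjusted p = 0.0439). The sign flipped for *Ptch1* with the same total (0.20), the same total without the 3 highest rows (0.0045) and array weights (0.0089), and for *Sufu* with the same total (0.15) and array weights (0.026). It flipped for *Hhip* with a pseudocount of 0.1 (-0.00066), array weights (-0.23) and the replicate block (-0.050). With 1 pup left out, *Ptch1* ranged from -0.030 to 0.039, *Sufu* from -0.12 to 0.053 and *Hhip* from -0.60 to 0.24. The *Gli3*/*Gli2* ratio ranged from -0.088 to 0.057 and *Gli2*/*Sufu* from -0.43 to -0.29. Rows called over the whole table were 0, but 40 with array weights, 18 with the replicate block and 0 to 179 with 1 pup left out (179 without PTU pup 2, 7 without control pup 6). With the same total without the 3 highest rows, 1123 rows were lower and 1195 higher at an unadjusted p under 0.05 in limma. With the same total, 81 rows were lower and 1584 higher at such a p. Correlations then were 0.687 for *Ptch1* and *Hhip*, 0.682 for *Gli2* and *Gli3* and 0.485 for *Boc* and *Cdon*. With 1 pup left out, r ranged from -0.642 to -0.118 for *Boc* and *Cdon*, 0.037 to 0.388 for *Gli2* and *Gli3*, and 0.0935 to 0.273 for *Ptch1* and *Hhip*. The causes were not tested.

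Replicate numbers mark pups of different litters, and deviations of same-numbered pups correlated between -0.07 and 0.198, above 0.1 for 4 of 6 numbers, short of the rule that every pair exceed 0.1, so the pups were not treated as paired. Of 12 pups, 5 correlated best with the pup of their own number. With the block, *Gli2* was at -0.46 (adjusted p = 0.0569 in limma), *Gli3* at -0.45 (0.0567), *Gli3*/*Gli2* at 0.012 and *Gli2*/*Sufu* at -0.41 (exact sign-flip permutation test, adjusted p = 0.156). An estimated 29 reads in the lowest pup limit the precision of *Hhip*.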

Other observations

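Marker lists of cell types other than those named above were read on the same pups, and 0 of their rows had an adjusted p of at most 0.05 in limma. Over all rows, 8.2% were lower and 8.11% higher at an unadjusted p under 0.05. All 6 listed astrocyte rows had a lower mean in the exposed group, 3 of them (*Aqp4*, *Aldh1l1* and *Aldoc*) at an unadjusted p under 0.05, with a median log2 fold change of -0.27. Of 5 ependyma rows, 4 had a lower mean and 3 (*Rsph1*, *Cfap126* and *Dynlrb2*) an unadjusted p under 0.05, with a median of -0.46, and no row carries the name *Foxj1*. All 6 oligodendrocyte lineage rows had a higher mean (median 0.29), with *Cspg4* alone at an unadjusted p under 0.05. Endothelium had a log2 fold change below 0 in 2 of 6 rows (median 0.13), and microglia in 2 of 7 (median 0.06), with *C1qa* lower at an unadjusted p under 0.05. Without PTU pup 1, rows at an unadjusted p under 0.05 numbered 3 for astrocytes and 2 for ependyma (all lower), 2 for the oligodendrocyte lineage and 1 for endothelium (all higher), and 0 for microglia, beside 7.67% lower and 6.64% higher over all rows.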
